A study of Sus scrofa with 8 samples.

Results

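Toll-like receptors are membrane proteins that recognise parts of microbes, and the mRNAs of the family (TLR1 to TLR10) were examined in the livers of young and old pigs. The members were the rows of the mRNA table whose pig gene symbol is one of the 10 names, and all 10 had a row among 21607 mRNAs, of which 11654 had a symbol. RNA-seq of rRNA-depleted liver RNA was available for 2 young sows aged 180 days (young 1 and young 2) and 2 old sows aged 8 years (old 1 and old 2), 1 library per animal. All were Yana pigs, a local breed from China, described as healthy and unrelated to each other, received no treatment and were fasted overnight before slaughter. The young sows had never given birth, while the old sows had borne litters over many years and were culled. Age and breeding history therefore cannot be told apart in these livers. Small RNA libraries of the same livers were not used here. The question was whether the level of each receptor mRNA differed between the ages.

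A Toll-like receptor reads its ligand with a horseshoe of leucine-rich repeats and signals through a domain on the inner side of the membrane. TLR1, TLR2, TLR4, TLR5, TLR6 and TLR10 belong to the group found at the cell surface, where most ligands are parts of the bacterial wall or flagella. TLR3, TLR7, TLR8 and TLR9 sit in endosomes and bind nucleic acids. Most members signal through the adaptor MYD88, and TLR3 and TLR4 use the adaptor TRIF (TICAM1), which leads to type I interferon. In the liver the receptors are known from Kupffer cells (the resident macrophages), from other immune cells and, for some members, from hepatocytes and endothelial cells.

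The values were CPM, reads scaled to a common library size, and each was a whole number of reads, so reads are given beside CPM where they are few. Values are given in the order young 1, young 2, old 1 and old 2. The listed mRNAs and lncRNAs held 51494799 and 52207625 reads in the young libraries and 28324740 and 31630059 in the old libraries, so low values were less precise in the old livers. CPM were scaled to larger totals, in which 1 read stood for 0.0109, 0.0116, 0.0162 and 0.0139 CPM. The mRNAs tested below summed to 408824 and 428828 CPM in the young libraries and 365170 and 346101 in the old ones. These mRNAs thus held a smaller share of the scaled reads in the old livers. A larger share of other reads lowers the CPM of every mRNA, and its part in the changes between the ages was not tested. Listed genes were found by symbol, so a gene whose row carries no symbol counts here and below as having no row. Among 12 hepatocyte markers, 10 had a row and all were above 0 in every library, with albumin (ALB) between 16534 and 35205 CPM. These are whole-liver values, in which fewer cells of a type and less RNA per cell cannot be told apart. Old 1 stood apart from the other livers in interferon-stimulated genes, all 22 of which were highest there, so values without it are given. With 2 animals per age, a p-value sets the difference between the ages against the spread between these animals only. Both limma and edgeR draw the spread of each gene toward that of all mRNAs tested.

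No receptor passed the test for a difference between the ages. With limma on log2(CPM + 1), 0 of the 10 members reached an adjusted p under 0.05 with a log2 change above 1, beside 0% of the 16898 mRNAs tested, whose smallest adjusted p was 0.213. On this scale a gene with a young mean under 1 CPM cannot fall by more than 1, even to 0 reads. The young mean was under 1 CPM in TLR1 (0.79), TLR6 (0.96), TLR7 (0.34), TLR9 (0) and TLR10 (0). A fall of these members could therefore not pass the fold threshold. At an unadjusted p under 0.05 the count of members was also 0 in either direction, beside 6.78% of all mRNAs higher and 8.93% lower in the old livers. The exact test of edgeR on the reads called 0 members, beside 2.68% of mRNAs called higher and 0.462% called lower. The quasi-likelihood test of edgeR called 0 members after adjustment, and 2 (TLR9 and TLR10, with few reads) at an unadjusted p under 0.05, beside 14.7% of all mRNAs. The median log2 change of the members, old minus young, was 0.07, beside -0.02 over all mRNAs tested. The members' median was -0.15 without old 1, -0.11 without young 2 and 0.21 without young 1, beside -0.03, -0.03 and 0.02 over all mRNAs. In both edgeR fits it was 0.52, beside 0.11 over all mRNAs. The members include TLR9 and TLR10, which had no reads in the young livers, so their change had to be positive. The members' adjusted p-values in limma lay between 0.442 (TLR6) and 0.967 (TLR3).

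Livers of the same age differed widely from each other. Over the 8 members with reads in every library, the higher of the 2 young livers was 1.04 to 3.83 times the lower, and the higher of the 2 old livers was 1.12 to 6.80 times the lower. The SE of their log2 change lay between 0.19 and 0.82. Both old livers lay above both young livers in 2 members (TLR9 and TLR10, which entered the test only through the old livers and so had to differ), beside 24.4% of all mRNAs. Both lay below in 1 member (TLR6), beside 25.0% of all mRNAs.

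**Figure D1:**
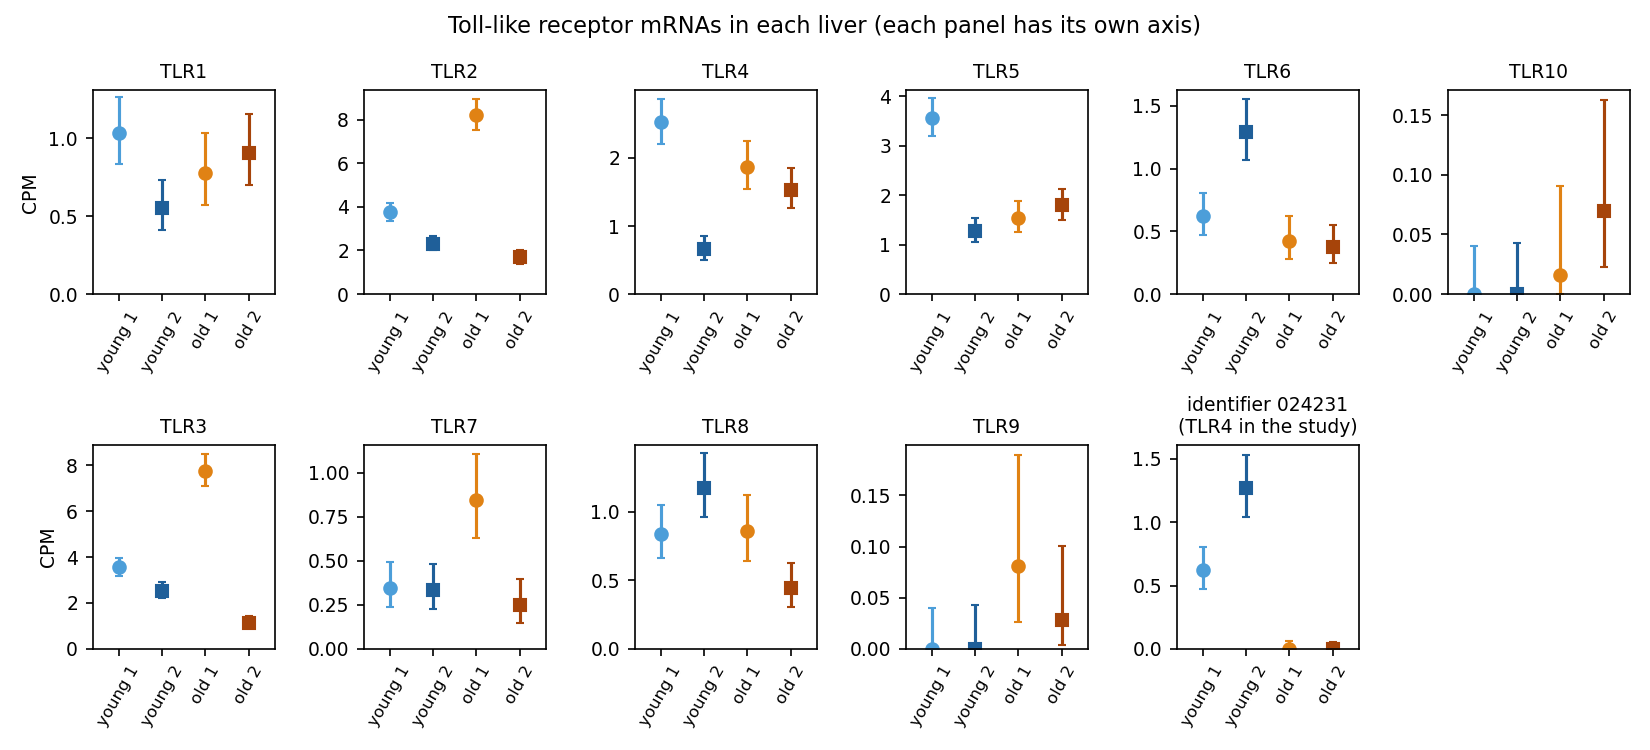
CPM of each Toll-like receptor mRNA in each of the 4 livers, with the members of the cell surface first, then those of endosomes, and last a further identifier that the study names TLR4. Bars are exact 95% Poisson intervals, which cover counting error only, and each panel has its own linear axis from 0. The point of old 1 is the highest in TLR2, TLR3 and TLR7, while old 2 is the lowest there.

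Of the receptors of the cell surface, TLR2, which binds bacterial lipoproteins together with TLR1 or TLR6, differed most between the 2 old livers. TLR2 (ENSSSCG00000009002) had 3.76 and 2.31 CPM at 180 days, and 8.21 in old 1 and 1.68 in old 2. Old 1 was the highest and old 2 the lowest of the 4, so the young livers lay between the old ones. The log2 change was 0.32 ± 0.73 (SE, limma, adjusted p = 0.880), and it was -0.56 without old 1 and 1.21 without old 2.

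TLR1 (ENSSSCG00000026583), a partner of TLR2, had 1.03 and 0.555 CPM at 180 days and 0.780 and 0.905 at 8 years. Both old values lay between the young values. Old minus young was 0.05 ± 0.19 on the log2 scale (SE, limma, adjusted p = 0.935), and without young 2 it was -0.14.

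TLR6 (ENSSSCG00000026592), the other partner of TLR2, was the only member with reads in all 4 libraries whose ages did not overlap. It had 0.621 and 1.29 CPM at 180 days and 0.422 and 0.376 at 8 years, from 57, 112, 26 and 27 reads. The old mean was 0.399 ± 0.033 CPM (SD, n = 2) and the young mean 0.958 ± 0.476 CPM (SD, n = 2). The log2 change was -0.46 ± 0.22 (SE, limma, adjusted p = 0.442), and it was -0.71 without young 1 and -0.21 without young 2. TLR10, TLR1 and TLR6 are close paralogs that lie next to each other in the RefSeq annotation of Sscrofa11.1, which also lists TLR6 as another name of TLR1, so reads may have been split among them and their values are uncertain.

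TLR10 (ENSSSCG00000027877), whose ligand is poorly known, had 0 reads in both young livers, 1 read in old 1 and 5 reads in old 2. It entered the test only through the old livers. No fold change is given, because the young livers were at 0 and 1 old liver was under 3 reads, the upper limit that a count of 0 allows, which corresponds to 0.0327 and 0.0347 CPM in the young libraries.

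TLR4 binds bacterial lipopolysaccharide together with LY96 and CD14. TLR4 (ENSSSCG00000005503) had 2.53 and 0.659 CPM at 180 days and 1.87 and 1.53 at 8 years. Both old values lay between the young values, and the young livers alone spanned 3.83-fold. Old minus young was 0.16 ± 0.44 on the log2 scale (SE, limma, adjusted p = 0.909). It was 0.70 without young 1 and -0.39 without young 2, so the direction followed the young liver that was kept.

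A further row of the table, ENSSSCG00000024231, has no symbol in the names table used here and is named TLR4 in the study. It had 57 reads (0.621 CPM) in young 1, 110 reads (1.27 CPM) in young 2 and 0 reads in both old livers. Against a floor of 3 reads per old library, the old level was at least 20.9-fold lower. In limma its log2 change was -0.94 ± 0.22 (SE, adjusted p = 0.251), in the exact test of edgeR its adjusted p was 0.00398, and in the quasi-likelihood test of edgeR its adjusted p was 0.277. It was chosen because the study singled it out on these same livers, so its direction is not independent evidence. Its reads at 180 days, 57 and 110, were close in number to those of TLR6, 57 and 112. At 8 years the numbers differed, with 0 reads for this identifier and 26 and 27 for TLR6. Whether they shared reads was not tested. Summed over both identifiers, TLR4 had 3.15 and 1.93 CPM at 180 days and 1.87 and 1.53 at 8 years. The old livers were thus below the young ones in the sum but not in the row that carries the symbol. In the sum, young 2 at 1.93 and old 1 at 1.87 CPM were close. The Poisson interval of old 1, 1.54 to 2.24 CPM, included the value of young 2. The order of these livers in the sum was therefore within counting error, and the sum was not run under other scalings.

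TLR5 (ENSSSCG00000010885), the receptor for bacterial flagellin, had 3.56 and 1.27 CPM at 180 days and 1.54 and 1.80 at 8 years. As for TLR4, young 1 was the highest, young 2 the lowest and both old livers lay between them. The log2 change was -0.27 ± 0.41 (SE, limma, adjusted p = 0.808), with -0.77 without young 2 and 0.23 without young 1.

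Of the receptors of endosomes, TLR3, which binds double-stranded RNA, had the widest spread of the family between the old livers. TLR3 (ENSSSCG00000015801) had 3.57 and 2.54 CPM at 180 days, 7.77 in old 1 and 1.14 in old 2. Old 1 was again the highest and old 2 the lowest. Old minus young was 0.11 ± 0.82 on the log2 scale (SE, limma, adjusted p = 0.967), and it was -0.91 without old 1, 1.12 without old 2 and -0.08 without young 2.

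TLR7 and TLR8 bind single-stranded RNA. TLR7 (ENSSSCG00000012117) had nearly equal values at 180 days, 0.348 and 0.335 CPM, beside 0.845 in old 1 and 0.251 in old 2, from 32, 29, 52 and 18 reads. Old 1 was the highest and old 2 the lowest of the 4 also for this member. The Poisson interval of old 2, 0.149 to 0.396 CPM, included both young values. The log2 change was 0.18 ± 0.24 (SE, limma, adjusted p = 0.782), with 0.46 without old 2 and -0.10 without old 1.

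TLR8 (ENSSSCG00000012118) had 0.838 and 1.18 CPM at 180 days and 0.861 and 0.445 at 8 years. Old 1 lay between the young livers and old 2 below both. Old minus young was -0.29 ± 0.20 on the log2 scale (SE, limma, adjusted p = 0.584), and it was -0.47 without old 1, -0.10 without old 2 and -0.16 without young 2. TLR7 lies inside the span of TLR8 in RefSeq Sscrofa11.1, and the libraries were made with a kit that keeps the strand, but whether reads were counted by strand is not given in the sources used here. Whether the pair shared reads was not tested.

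TLR9 (ENSSSCG00000011436), the receptor for unmethylated CpG DNA, had 0 reads in both young livers, 5 reads in old 1 and 2 reads in old 2. Like TLR10, it entered the test only through the old livers, and no fold change is given. Both members were seen only in the libraries with fewer reads.

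**Figure D2:**
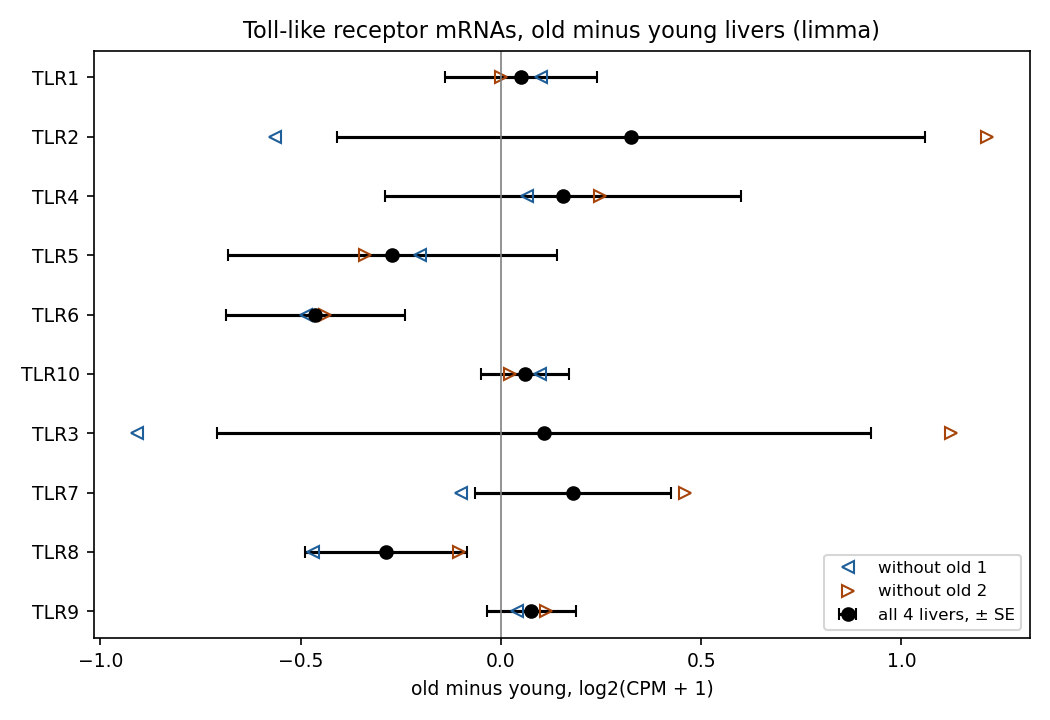
Log2 change of each member, old minus young, on the log2(CPM + 1) scale, with all 4 livers (black, bars are ± 1 SE from limma), without old 1 (left-pointing triangles) and without old 2 (right-pointing triangles). For TLR2 the value was 0.32 with all livers, -0.56 without old 1 and 1.21 without old 2, while for TLR6 the 3 values lay close together.

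TLR2, TLR3 and TLR7 thus shared one order of the livers, with old 1 above both young livers and old 2 below both. This order was seen in 3 of the 10 members, beside 4.85% of all mRNAs, and it was picked out after the values were seen, so no test was made. For TLR7 the place of old 2 below the young livers was within counting error. Against the young mean, old 1 held 2.71 times the level of TLR2, 2.54 times that of TLR3 and 2.47 times that of TLR7. Old 2 held 0.555, 0.374 and 0.735 times the young mean of the same 3 genes. Old 1 was above both young livers in 5 of 10 members, beside 35.5% of all mRNAs, and was the highest of the 4 livers in 4, beside 23.9%. Old 2 was above both young livers in 2 members (TLR9 and TLR10), beside 34.7% of all mRNAs, and below both in 5 (TLR2, TLR3, TLR6, TLR7 and TLR8), beside 35.5%. TLR9 and TLR10 had no reads in the young livers and had to lie above them, and among the 8 members with reads in all livers, old 1 was above both young livers in 3 and the highest in 3, and old 2 was above both in 0. Summed over the family, the receptors had 16.3 and 10.1 CPM at 180 days, 22.4 in old 1 and 8.23 in old 2, a sum to which long transcripts add more reads than short ones.

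Several other genes had profiles over the 4 livers close to those of the members that varied by at least 1 on the log2 scale. Likeness was the Euclidean distance between centred log2(CPM + 1) values over 4 libraries, among 6101 genes, and with so few libraries it describes these livers only. The nearest to TLR2 were AEN (distance 0.157) and USP15 (0.181). Nearest to TLR3 were HSPA5 (0.198), a chaperone of the endoplasmic reticulum, and PSMA5 (0.252), a subunit of the proteasome. HSPA5 had 97.2 and 68.8 CPM at 180 days, 207 in old 1 and 47.4 in old 2. The nearest to TLR4 were FHIP1B (0.0946) and ISG20L2 (0.101), and to TLR5 COG3 (0.111) and PSMD1 (0.116), a further proteasome subunit.

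The genes that work with the receptors were followed in the same fit. Of 82 genes listed for the pathway, 59 had a row and 56 were tested. None passed the adjusted threshold in limma, and at an unadjusted p under 0.05, 10 were higher in the old livers (CD14, CNPY3, TICAM1, IRAK1, RIPK1, IRF3, TNIP1, NFKBIA, DUSP1 and CXCL2) and 1 lower (IL18), beside the 6.78% and 8.93% given above for all mRNAs. The exact test called 6 higher (UNC93B1, TICAM1, IRF7, FOS, DUSP1 and CXCL2) and 0 lower, beside 2.68% and 0.462%. Both old livers were above both young livers in 21 of the 56 and below in 9, beside 24.4% and 25.0%. The 21 include CXCL2 and CXCL8, which had 0 reads in both young livers and entered the test only through the old ones. CXCL2 is also among the 10 and the 6 above, where it could change only upward. The median log2 change was 0.11, beside -0.02 over all mRNAs. The count of genes higher at an unadjusted p under 0.05 was 5 without young 1 and 1 without young 2, and that of genes lower was 4 without young 1, 3 without young 2 and 6 without old 1.

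Ligand handling differed between the genes that serve TLR4. CD14, which passes lipopolysaccharide to TLR4, had 27.9 and 27.8 CPM at 180 days and 49.7 and 91.1 at 8 years. Its log2 change was 1.24 ± 0.35 (SE, limma, adjusted p = 0.282), with 1.68 without old 1 and 0.81 without old 2, and both old livers were above both young ones. LY96, the partner that completes the TLR4 receptor, had 2.09 and 5.77 CPM at 180 days and 1.64 and 1.60 at 8 years, without overlap but with an adjusted p of 0.501. Its log2 change was -0.80 with all livers, -1.37 without young 1 and -0.24 without young 2. LBP, a lipopolysaccharide-binding protein made by hepatocytes, had 222 and 228 CPM at 180 days and 216 and 134 at 8 years (adjusted p = 0.590). Of the 4 genes tested in this list, 2 had a higher and 2 a lower mean. CD14 alone had an unadjusted p under 0.05, beside 6.78% of all mRNAs higher and 8.93% lower.

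UNC93B1 carries the receptors of nucleic acids from the endoplasmic reticulum to endosomes. It had 0.915 and 0.982 CPM at 180 days, 27.5 in old 1 and 3.23 in old 2, so both old livers were above both young ones and old 1 stood far above old 2. The log2 change was 2.49 ± 1.08 (SE, limma, adjusted p = 0.404), with 1.12 without old 1 and 3.87 without old 2, and the exact test of edgeR gave an adjusted p of 0.0244. LMAN1, a cargo receptor for proteins leaving the endoplasmic reticulum, had 37.4 and 31.7 CPM at 180 days and 29.1 and 17.8 at 8 years (log2 change -0.58, adjusted p = 0.471, and -0.24 without old 2). Of the 8 genes tested for folding and trafficking, 3 had a higher and 5 a lower mean. CNPY3, a chaperone of the receptors, alone had an unadjusted p under 0.05, beside 6.78% of all mRNAs higher and 8.93% lower. It had 26.6 and 20.7 CPM at 180 days and 33.7 and 35.5 at 8 years.

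Among the adaptors, the one of the TRIF branch stood higher in both old livers. TICAM1 had 1.23 and 1.17 CPM at 180 days and 3.22 and 6.64 at 8 years. In log2 terms it differed by 1.37 ± 0.35 (SE, limma, adjusted p = 0.266), and the exact test of edgeR gave an adjusted p of 0.04998, just under the threshold. MYD88, the adaptor shared by nearly all members, had 2.92 and 1.78 CPM at 180 days, 3.82 in old 1 and 1.60 in old 2, which is the order of TLR2, TLR3 and TLR7. The Poisson interval of old 2, 1.32 to 1.92 CPM, included the value of young 2. The log2 change of MYD88 was 0.10 ± 0.41 (SE, limma, adjusted p = 0.942), with -0.34 without old 1 and -0.15 without young 2. TIRAP, which brings MYD88 to TLR2 and TLR4, had 6.38 and 2.87 CPM at 180 days and 14.3 and 6.03 at 8 years (log2 change 0.96, adjusted p = 0.529), and without old 1 the log2 change was 0.40. TICAM2 was not analysed here.

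Of 15 kinases and ubiquitin ligases tested, 7 had a higher and 8 a lower mean in the old livers. RIPK1, a kinase of the TRIF branch, had 2.46 and 2.83 CPM at 180 days and 5.92 and 4.40 at 8 years (log2 change 0.75 ± 0.18, SE, limma, adjusted p = 0.259). IRAK1, a kinase of the MYD88 branch, was the other with an unadjusted p under 0.05, beside 6.78% of all mRNAs higher and 8.93% lower. It had 0.468 and 0.300 CPM at 180 days and 1.09 and 1.46 at 8 years. IRAK4, the first kinase recruited by MYD88, had 0.773 and 3.70 CPM at 180 days and 1.61 and 1.10 at 8 years, both between the young values (adjusted p = 0.852). Its log2 change was -0.30 with all livers and 0.40 without young 2. BTK, a kinase of B and myeloid cells, had 0.762 and 2.93 CPM at 180 days and 0.747 and 0.529 at 8 years (log2 change -0.69, adjusted p = 0.574, with -1.27 without young 1 and -0.11 without young 2). TRAF6 was not analysed here.

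Of 9 transcription factors tested, 6 had a higher and 3 a lower mean. NFKB1, a subunit of NF-kappaB, was nearly level, with 10.4 and 11.4 CPM at 180 days and 11.7 and 10.9 at 8 years (log2 change 0.05 ± 0.12, SE, limma, adjusted p = 0.899, and -0.01 without young 1). IRF3, which acts below TRIF, had 16.6 and 18.1 CPM at 180 days and 22.3 and 25.6 at 8 years (log2 change 0.44, adjusted p = 0.307). IRF7, which acts below TLR7 and TLR9 and is itself induced by interferon, had 0.544 and 0.936 CPM at 180 days, 63.0 in old 1 and 1.92 in old 2. In log2 terms it differed by 2.98 ± 1.75 (SE, limma, adjusted p = 0.515), with 0.76 without old 1 and 5.21 without old 2. FOS, an early response factor, was high in the other old liver, with 1.17 and 1.49 CPM at 180 days, 9.95 in old 1 and 206 in old 2. Its log2 change was 4.36 ± 1.67 (SE, limma, adjusted p = 0.362), with 6.48 without old 1 and 2.24 without old 2.

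**Figure D3:**
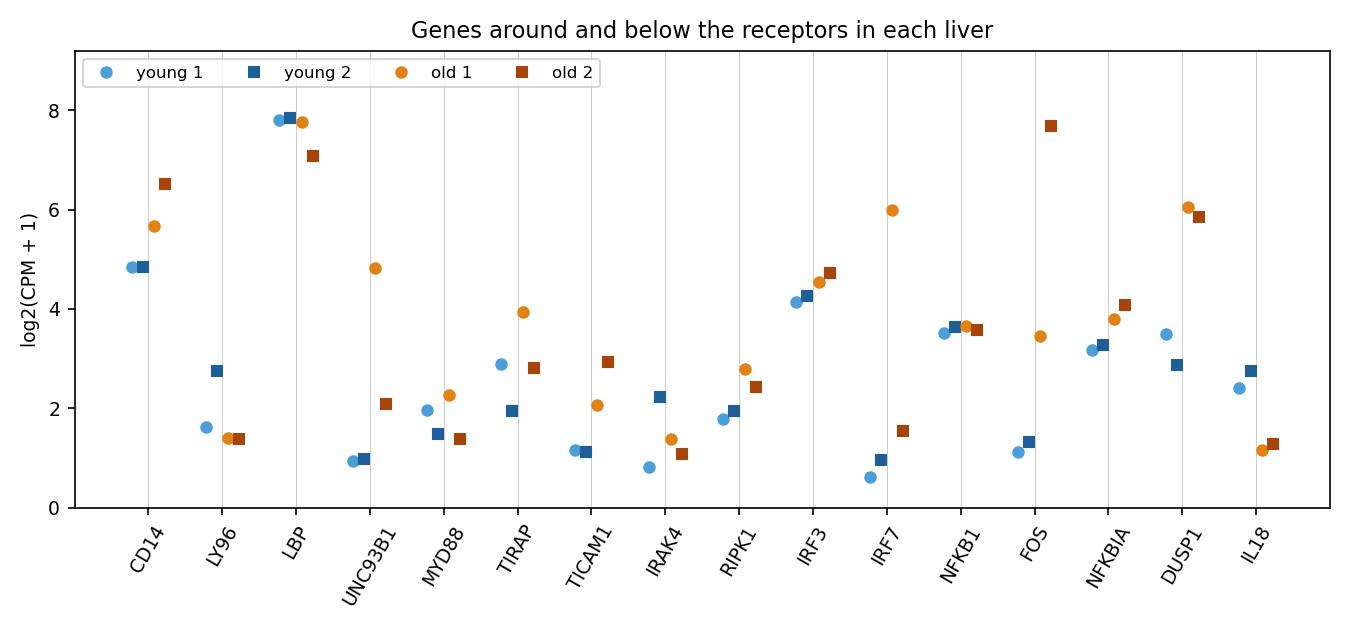
Log2(CPM + 1) of 16 genes around and below the receptors in each of the 4 livers, 1 point per library. The points of the old livers lie above those of the young ones in CD14, TICAM1 and DUSP1 and below them in IL18, and old 1 alone stands high in IRF7, at 63.0 CPM, as old 2 does in FOS, at 206 CPM.

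Of 9 genes listed as inhibitors of the pathway and tested, 6 had a higher and 3 a lower mean. At an unadjusted p under 0.05, 3 were higher and 0 lower, beside 6.78% and 8.93% of all mRNAs. DUSP1, a phosphatase that ends MAP kinase signals, had 10.245 and 6.37 CPM at 180 days and 65.2 and 56.6 at 8 years. Its log2 change was 2.76 ± 0.27 (SE, limma, adjusted p = 0.213), and it was called by the exact test of edgeR. NFKBIA, which holds NF-kappaB in the cytoplasm, had 8.06 and 8.64 CPM at 180 days and 13.0 and 15.8 at 8 years. TNIP1, a partner of the NF-kappaB brake A20, had 8.21 and 6.85 CPM at 180 days and 20.2 and 13.0 at 8 years. NFKBIZ, whose role as an inhibitor was not examined here, had 5.17 and 6.67 CPM at 180 days and 4.60 and 4.48 at 8 years. Its log2 change was -0.31 (limma, adjusted p = 0.470), and it was -0.16 without young 2.

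Of 15 cytokines that the receptors are known to induce, 11 had a row and 8 were tested. IL6 and IFNB1 were at 0 reads in all 4 livers, and CXCL8 had reads only in the old livers, at 0.032 and 0.014 CPM. IL18, a cytokine of the interleukin 1 family made as an inactive precursor, had 4.33 and 5.78 CPM at 180 days and 1.24 and 1.43 at 8 years. It was the one pathway gene lower at an unadjusted p under 0.05, with a log2 change of -1.37 ± 0.18 (SE, limma, adjusted p = 0.213). CXCL2, a chemokine for neutrophils, had 0 reads at 180 days and 0.357 and 0.404 CPM at 8 years.

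Other sensors of microbial RNA, DNA and wall parts were set beside the receptors, and 7 of 13 listed had a row. At an unadjusted p under 0.05 in limma, 0 were higher in the old livers, beside 6.78% of all mRNAs, and 1 was lower, beside 8.93%. That was MAVS, the adaptor of the cytoplasmic RNA sensors, with 10.6 and 11.7 CPM at 180 days and 6.76 and 6.85 at 8 years (log2 change -0.63, adjusted p = 0.228). Of the others, DHX58 had 50.3 CPM in old 1 and between 0.544 and 1.31 CPM in the other livers. ZBP1 had 79.7 CPM in old 1, 5.51 in old 2 and 1.88 and 1.51 at 180 days. The exact test of edgeR called 1 of the 7 higher (ZBP1, adjusted p = 0.0279) and 0 lower, beside 2.68% and 0.462% of all mRNAs.

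Interferon-stimulated genes were also highest in old 1. Of 28 listed, 22 had a row under their symbol. ISG15, which the study reports as higher in the old livers, was not among them. All 22 were the highest in old 1, beside 23.9% of all mRNAs, while 12 were below both young livers in old 2, beside 35.5%. Their median log2(CPM + 1) was 1.63 and 2.21 at 180 days, 5.47 in old 1 and 1.61 in old 2. RSAD2, an antiviral enzyme, had 0.664 and 1.54 CPM at 180 days, 618 in old 1 and 2.28 in old 2. The median log2 change of the list was 1.55, with -0.12 without old 1 and 3.28 without old 2. None of the 22 had an unadjusted p under 0.05 in limma, beside 6.78% of all mRNAs higher and 8.93% lower. The exact test of edgeR called 1 higher (RSAD2, adjusted p = 0.0498, just under the threshold), beside 2.68% of all mRNAs. The part of this response in the receptor levels was not tested.

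**Figure D4:**
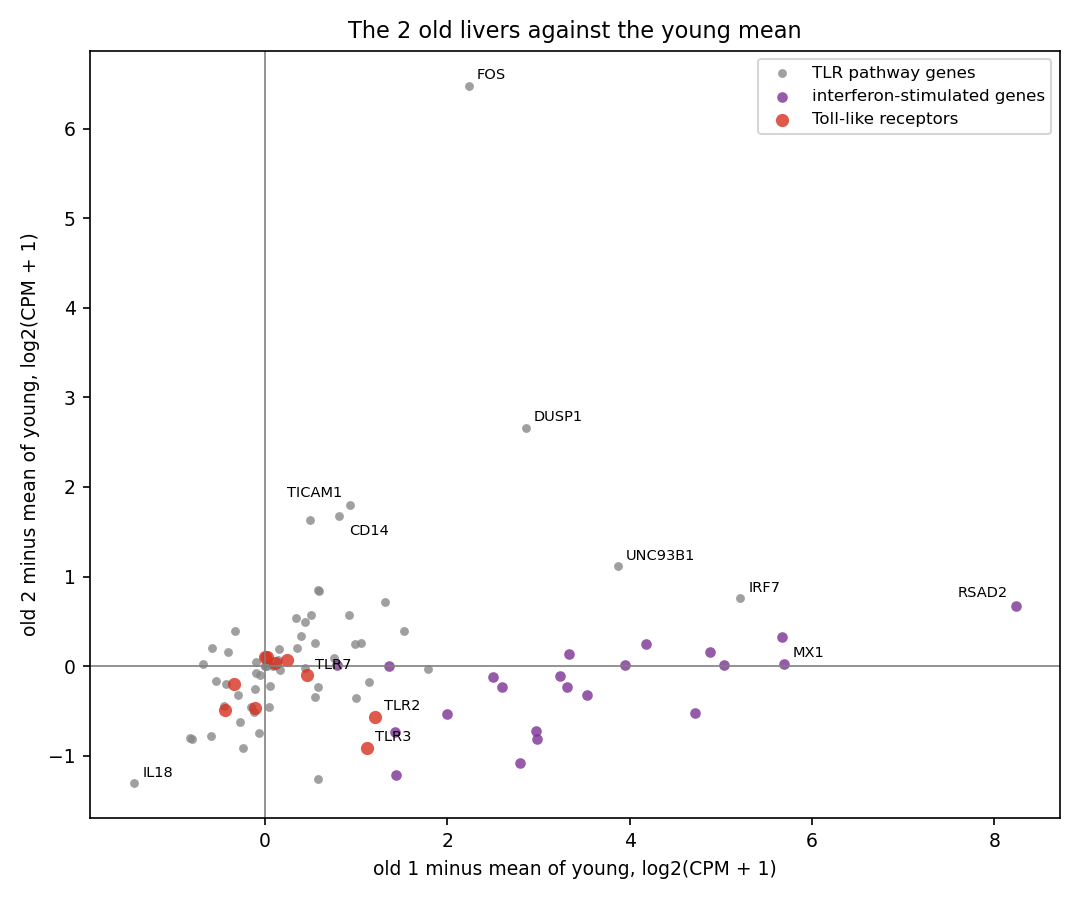
Difference from the mean of the young livers on the log2(CPM + 1) scale, with old 1 on the horizontal and old 2 on the vertical axis, for the Toll-like receptors (red), the genes of the pathway (grey) and interferon-stimulated genes (purple), 1 point per gene. TLR2, TLR3 and TLR7 lie to the lower right of 0, on the side where all 22 interferon-stimulated genes are high in old 1.

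Markers of cell types that carry the receptors also differed between single livers. Of 15 macrophage markers, 8 had a row, with a sum of 245 and 277 CPM at 180 days, 384 in old 1 and 317 in old 2, and 1 was higher (CD68) and 2 lower (MRC1 and MSR1) at an unadjusted p under 0.05, beside 6.78% and 8.93% of all mRNAs. C1QA made up most of each sum, with 181 and 204 CPM at 180 days and 255 and 241 at 8 years. Of 10 markers of neutrophils and monocytes, 6 had a row, with a sum of 5.72 and 4.09 CPM at 180 days, 14.2 in old 1 and 4.19 in old 2, and S100A8 had no reads at 180 days beside 3.54 and 0.919 CPM at 8 years. In this list 1 marker was higher and 0 lower at an unadjusted p under 0.05, beside 6.78% and 8.93% of all mRNAs. Of 9 markers of B and plasma cells, 5 had a row, with a sum of 2.22 and 6.15 CPM at 180 days and 2.11 and 2.12 at 8 years. Of 7 markers of plasmacytoid dendritic cells, only 2 had a row (TCF4 and FLT3), with a sum of 3.28 and 4.59 CPM at 180 days and 3.33 and 2.12 at 8 years. Of 12 markers of T and NK cells, 8 had a row, with a sum of 8.78 and 10.6 CPM at 180 days and 20.9 and 14.05 at 8 years. At an unadjusted p under 0.05, 2 of them (CD8A and NKG7) were higher and 0 lower, beside 6.78% and 8.93% of all mRNAs.

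The 10 hepatocyte markers summed to 49889 and 56325 CPM at 180 days and 34663 and 40831 at 8 years. Of them, 1 (APOB) was lower at an unadjusted p under 0.05, beside 8.93% of all mRNAs. For endothelial cells, 5 of 11 markers had a row, and their sum was 43.4 and 39.0 CPM at 180 days, 69.3 in old 1 and 46.4 in old 2. Their median log2(CPM + 1) went the other way in old 1, with 3.38 and 3.27 at 180 days, 2.21 in old 1 and 3.17 in old 2. For stellate cells and fibroblasts, 8 of 10 had a row, with a sum of 21.8 and 40.6 CPM at 180 days and 15.8 and 53.5 at 8 years. For cholangiocytes, 4 of 6 had a row, with a sum of 9.40 and 11.8 CPM at 180 days and 7.51 and 19.0 at 8 years. None of the markers in the last 3 lists had an unadjusted p under 0.05, beside 6.78% of all mRNAs higher and 8.93% lower. The part of these cell types in the receptor levels was not tested.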

How the data were processed

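Reads of the 4 liver RNA-seq libraries were aligned by the authors with TopHat2 2.0.14 to Sscrofa10.2, assembled with StringTie 1.2.3 and quantified with Salmon 0.6.0. The deposited values, named TPM, were CPM: within each library 100% of the values up to 1000 reads were whole multiples of 1 read (tolerance 0.1 read), and reads were recovered from them. Depth is given as reads on listed mRNAs and lncRNAs, while CPM were scaled to larger totals. Gene names came from Ensembl and RefSeq tables.

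limma 3.58.1 in R 4.3.3 was run on log2(CPM + 1) of the 16898 mRNAs that had reads in 2 or more libraries, adjusted by the Benjamini-Hochberg method, and a call needed an adjusted p under 0.05 and a log2 change above 1. A fold change on this scale understates that of low genes. The exact and quasi-likelihood tests of edgeR 4.0.16 on recovered reads were alternatives, as were other pseudocounts, filters, scalings, a variance trend, a replicate block and leaving out each library. The fits were tested on simulated data. Groups came from the sample labels. Members and gene lists were chosen with earlier results of these data known. Named genes were all members, the main adaptors and co-receptors, the largest rise and fall of each pathway list without overlap between ages and with a mean of at least 1 CPM, and the 2 genes nearest in profile to each member that varied by at least 1 on the log2 scale. CNPY3, IRAK1, NFKBIA, TNIP1, CXCL2, CXCL8, IL6, IFNB1, MAVS, DHX58, ZBP1, RSAD2 and the cell type markers named were added after their values were seen. Levels were not compared between genes, since no transcript lengths were used here, and the small RNA and circRNA values were not used here.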

Additional observations from a re-analysis of the deposited data

How the results depend on the processing

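The count of members past the adjusted threshold was 0 in every setting run. Of the members' own values under the alternatives, the further TLR4 identifier left out, 121 kept their direction and their side of an unadjusted p under 0.05, 6 passed it newly and 7 changed sign. Leaving out 1 library gave log2 changes from -0.14 to 0.24 for TLR1, -0.56 to 1.21 for TLR2, -0.91 to 1.12 for TLR3, -0.39 to 0.70 for TLR4, -0.77 to 0.23 for TLR5, -0.10 to 0.46 for TLR7, -0.34 to 0.55 for MYD88, -1.005 to 0.40 for IRAK4 and -0.012 to 0.10 for NFKB1. The members' median (0.07) was 0.23 with a pseudocount of 0.1, and -0.15 (without old 1) to 0.21 (without young 1) without 1 library. In both edgeR tests it was 0.52, beside 0.11 over all mRNAs. Members higher at an unadjusted p under 0.05 numbered 2 in the quasi-likelihood test and 0 to 1 without 1 library, and members lower 0 to 1. The pathway median (0.11) was 0.26 with a pseudocount of 0.1, and 0.020 to 0.25 without 1 library. In both edgeR tests it was 0.44, beside the same 0.11 over all mRNAs. Pathway genes higher (10) numbered 6 with a filter on a mean of at least 1 CPM and 6 without a filter, and 1 (without young 2) to 15 (without old 2) without 1 library, and those lower (1) numbered 1 to 6. Pathway genes past the adjusted threshold (0) numbered 6 in the exact test. Over all mRNAs the exact test called 531 and the filter on the mean 2, beside 0. The share of higher among calls at an unadjusted p under 0.05 was 43.1% and rose to 60.2% with TMM scaling, 59.0% with median-of-ratios scaling, 57.7% with a variance trend, 59.7% with a pseudocount of 0.1, 78.8% in the exact test and 78.3% in the quasi-likelihood test. The cause of these shifts was not tested. Same-numbered livers share only a number (correlation of their deviations 0.0902), and with the replicate block 0 members were called, 7 pathway genes were higher at an unadjusted p under 0.05 in place of 10, and the split over all mRNAs was 1065 higher and 1360 lower, beside 1145 and 1509 without it. The order of the members by level per kb was not run, since no transcript length was used here. TLR9 and TLR10 had at most 5 reads in a library, so their values carry a wide counting error.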
